A study of Mus musculus with 40 samples.

Results

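Cytosolic ribosomal protein genes encode the proteins of the large and small subunits of the ribosome that translates nuclear-encoded messages. They were followed here in mouse bladder urothelial organoids that lack, or keep, the histone methyltransferases Kmt2c and Kmt2d, with and without the menin inhibitor MI-503. Members were all rows of the deposited count table whose symbol is Rpl or Rps followed by digits and an optional a, l or x, together with Rplp0, Rplp1, Rplp2 and Rpsa. Pseudogene rows ending in -ps, the Rps6k kinases, Rps27l and predicted genes were left out. The rule found 83 genes among 53465 gene rows, 52 of the large and 31 of the small subunit. Of these, 80 passed the filter on low counts, and Rpl3l, Rpl10l and Rpl39l had 0 counts in all 8 libraries. A mean of at least 5 CPM (counts scaled to a common library size) was reached by 77 members.

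The study compared urothelial cells labelled as double knockouts of Kmt2c and Kmt2d (dKO) with wild-type cells (WT). Both were grown as organoids in a medium with EGF, Noggin and R-spondin, with Y-27632, which inhibits the kinase ROCK, and with A83-01, which inhibits TGF-β type I receptors. Cells received MI-503 at 1 µM or its solvent DMSO for 4 days, and polyA RNA was sequenced from 2 libraries in each of 4 groups: dKO MI-503, dKO DMSO, WT MI-503 and WT DMSO. The labels do not say how the alleles were deleted, how many animals or lines were used, or whether replicates were separate cultures, so p-values measure only the spread between these libraries.

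Cells make the ribosomal proteins in near equal numbers, and surplus proteins that find no partner are degraded. Their messages are known for a start of pyrimidines, the terminal oligopyrimidine (TOP) motif, through which the kinase mTORC1 and the protein LARP1 set how strongly they are translated. A change in message is therefore not a measure of protein output. MI-503 blocks the binding of menin to the methyltransferase KMT2A, while KMT2C and KMT2D methylate histone H3 lysine 4 mainly at enhancers.

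The DNA around 8 annotated starts is printed to show which of the members that the comparisons turn on carry such a pyrimidine start. Shown are Rpl7a, Rpl13a and Rpl41, which rose most with MI-503 in WT cells among members with an entry, Rpl5, Rpl23 and Rpl35a, which fell, and Rps6 and Rps23, which were called lower in WT and higher in dKO cells. Each window holds 30 bases before the start and 20 bases from it, 5′ to 3′ on the gene's strand, from RefSeq promoters of GRCm38.p6. Capitals mark the longest run of at least 5 C or T letters that begins with a C within 10 bases of the start.
Rpl7a: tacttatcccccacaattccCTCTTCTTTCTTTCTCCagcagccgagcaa
Rpl13a: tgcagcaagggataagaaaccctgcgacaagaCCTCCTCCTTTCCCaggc
Rpl41: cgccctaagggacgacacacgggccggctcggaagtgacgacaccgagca
Rpl5: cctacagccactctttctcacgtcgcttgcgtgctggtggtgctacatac
Rpl23: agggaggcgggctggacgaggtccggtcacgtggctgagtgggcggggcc
Rpl35a: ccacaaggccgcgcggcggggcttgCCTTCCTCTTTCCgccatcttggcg
Rps6: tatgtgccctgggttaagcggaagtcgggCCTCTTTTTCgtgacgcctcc
Rps23: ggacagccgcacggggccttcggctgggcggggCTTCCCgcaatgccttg
The windows lie at chr2:26910777-26910826 (plus strand) for Rpl7a, chr7:45128726-45128775 (minus) for Rpl13a, chr10:128549149-128549198 (minus) for Rpl41 and chr5:107900498-107900547 (plus) for Rpl5. Those of Rpl23, Rpl35a, Rps6 and Rps23 lie at chr11:97782420-97782469 (minus), chr16:33056452-33056501 (plus), chr4:86857348-86857397 (minus) and chr13:90923092-90923141 (plus). For Rpl35a, 1 of 3 listed starts is shown. A marked run is present in Rpl7a and Rpl13a but also in Rpl35a, Rps6 and Rps23, so runs by this wide rule stood in members of both directions. Among the 8 windows, only those of Rpl35a and Rps6 had a C and at least 4 more C or T letters from the first base itself. Both genes were called lower with MI-503 in WT cells, and Rps6 higher in dKO cells. No run that begins within 10 bases of the start was found for Rpl41, Rpl5 and Rpl23. The Rpl5 window does hold the letters ctctttctc further upstream, outside the bases searched. Their first C is at chr5:107900508, which is the gene start listed for Rpl5, so a pyrimidine start of Rpl5 is not excluded. The gene start listed for Rpl7a, chr2:26910685, lies upstream of the window printed, which holds another annotated start.

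RefSeq promoters of 300 bases, from 250 before to 50 after the start, were matched by symbol for 61 members, which had 72 listed starts. A C followed by at least 4 C or T letters at the first base itself was present in 14 of the 72 member promoters, or 19.4%, against 2.505% of all 32851 promoters. Allowing a start within 10 bases on either side, the shares were 55.6% and 30.7%. The letters CCGGAAG, on either strand, stood in 34.7% of member promoters and 8.86% of all promoters; their reverse complement can overlap a pyrimidine run. AAGATGG was present in 15.3% and 6.34%, GGGCGG in 58.3% and 35.7% and CACGTG in 11.1% and 7.15%, each on either strand. TATAAA between 40 and 20 bases before the start was present in 0 of the 72 member promoters and in 1.91% of all promoters. These matches are letters in a window and not measured binding.

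The 8 libraries held 58113705 to 68571176 counts each. Kmt2c, the first targeted gene, had 26.6 and 29.8 CPM in the dKO MI-503 libraries, 55.2 and 52.3 in the dKO DMSO libraries, 60.3 and 61.6 in the WT MI-503 libraries, and 110.2 and 111 in the WT DMSO libraries. It fell in dKO against WT cells in both treatments. Kmt2d counts went the other way, with 104 and 86.5 CPM in the dKO MI-503 libraries, 111 and 133 in the dKO DMSO libraries, 75.8 and 65.7 in the WT MI-503 libraries, and 95.4 and 86.5 in the WT DMSO libraries, and rose in the libraries labelled dKO; whole-gene counts do not show a lost exon. Of 18 urothelial markers 17 could be tested, and their summed level ran from 17636 to 19569 CPM in dKO MI-503, 19281 to 21042 in dKO DMSO, 12090 to 12645 in WT MI-503 and 8999 to 9739 in WT DMSO libraries. The sum hides opposite changes: in dKO against WT cells in DMSO, 10 of the 17 rose and 4 fell, with changes from -4.60 to 5.07. Of all genes, 29.6% rose and 35.8% fell. The basal keratin genes Krt5 and Krt14 were abundant. Upk2, a uroplakin of the umbrella layer, stayed at or under 0.149 CPM, but Upk3a and Krt20 of the same list passed the filter on low counts. Fibroblast and smooth muscle markers summed to 15.4 to 16.1 CPM, 4.99 to 5.41, 41.8 to 44.1 and 4.53 to 5.74 CPM in the same group order, with Col1a2, Dcn and Lum at 0 counts in every library. Of these 12 markers 6 could be tested. With MI-503, 2 rose and 0 fell in dKO cells, where 29.1% of all genes rose and 26.5% fell. In WT cells 2 rose and 1 fell, with changes from -3.45 to 3.67, where 35.2% of all genes rose and 33.7% fell. The most significant of the 6 was Acta2 in both genotypes. Immune markers summed to 61.2 to 69.9, 13.1 to 13.2, 161 to 166 and 16.5 to 18.7 CPM, nearly all of it Cd68, with Lyz2 and Adgre1 at 0. Endothelial markers summed to at most 0.468 CPM. The part of these markers in the results was not tested.

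Both WT DMSO libraries stood apart in 1 respect that touches every comparison with them. A list of 16 chaperones of the endoplasmic reticulum took 0.42% to 0.547% of counts in the other 6 libraries, against 3.70% and 3.97% in WT DMSO. The TMM scaling factors were lowest there, at 0.896 and 0.892, where the others ran from 1.007 to 1.062. All 16 chaperones fell in WT MI-503 against WT DMSO and in dKO DMSO against WT DMSO cells, where 33.7% and 35.8% of all genes fell. Their part in the results for ribosomal protein genes was not tested beyond the scalings given below.

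Replicates of a group also differed along 1 axis, seen over all genes and more closely followed within the ribosomal protein genes. Rpl36, a large-subunit protein gene, differed most, by a log2 difference (replicate 2 minus replicate 1) of -0.64 in dKO MI-503, 0.71 in dKO DMSO and -0.51 in WT DMSO cells. Across 77 members these differences in dKO MI-503 correlated with those of WT MI-503 (Pearson r = 0.84) and WT DMSO (r = 0.76), and ran against those of dKO DMSO (r = -0.97). Over all 10123 genes of at least 5 CPM the values were 0.42, 0.44 and -0.60 in the same order. The points of each correlation are genes counted in the same 4 libraries. The SD of the differences over members was 0.15 in dKO MI-503, 0.17 in dKO DMSO, 0.088 in WT MI-503 and 0.13 in WT DMSO. Members far along this axis, above all Rpl36 and Rplp1, are given below with their replicate values.

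**Figure D1:**
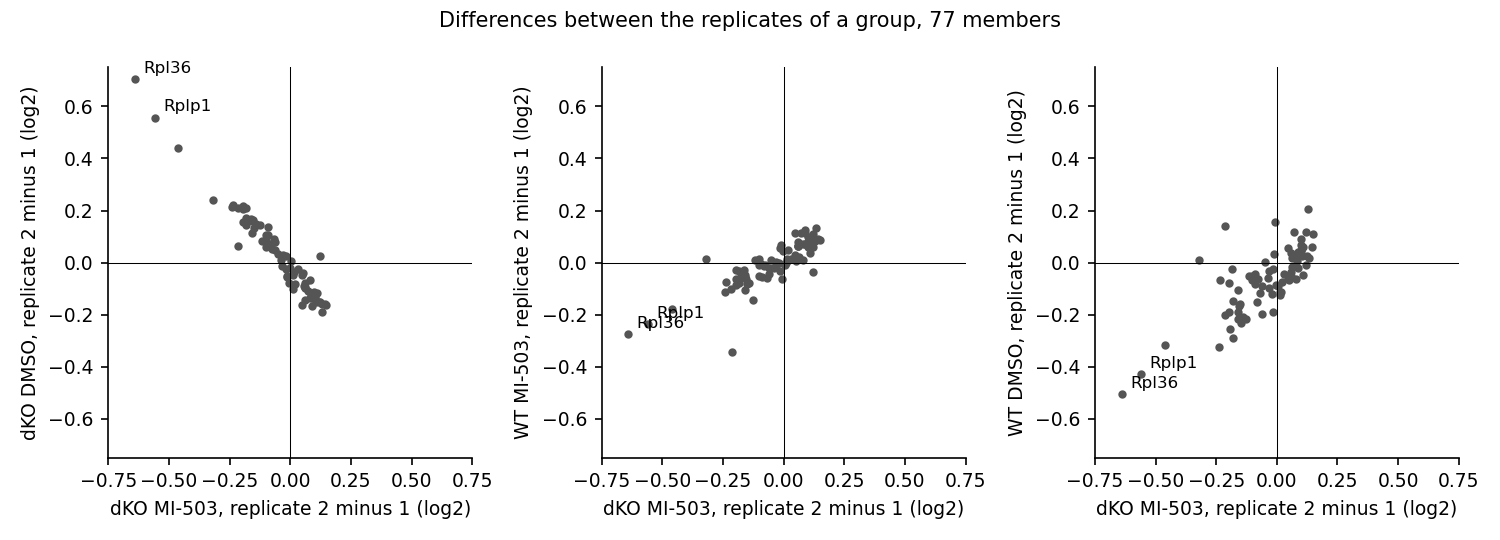
Log2 differences between replicate 2 and replicate 1 of a group for 77 ribosomal protein genes, with the dKO MI-503 difference on every x axis and dKO DMSO, WT MI-503 and WT DMSO on the y axes. Points fall along a line that runs down for dKO DMSO (r = -0.97) and up for WT MI-503 (r = 0.84) and WT DMSO (r = 0.76), with Rpl36 and Rplp1 at one end.

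With MI-503 the ribosomal protein genes took a larger share of the messages in both genotypes. They held 7.09% and 6.99% of all counts in dKO MI-503, against 6.09% and 6.17% in dKO DMSO libraries. In WT cells they held 6.98% and 7.03% with MI-503, against 5.52% and 5.32% in DMSO. The share was thus similar in both MI-503 groups and lowest in WT DMSO, and treated and solvent libraries did not overlap in either genotype. An exact two-sided permutation test gave p = 0.333 for each genotype, the smallest value that 2 against 2 libraries allow. Transcripts of the mitochondrial genome took 2.35% and 2.68% of counts in dKO MI-503, against 3.05% and 2.86% in dKO DMSO, and 2.50% and 2.48% in WT MI-503, against 3.10% and 3.35% in WT DMSO; with these left out of the total, the member share was 7.221% in dKO MI-503, 6.316% in dKO DMSO, 7.183% in WT MI-503 and 5.602% in WT DMSO. In bulk RNA, a change in the number of cells of a type and a change in RNA per cell cannot be told apart.

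TMM scaling, which sets each library against the bulk of its genes, gave the same direction for MI-503 and another picture for genotype. The summed level was 66518 ± 914 CPM in dKO MI-503 and 58521 ± 117 CPM in dKO DMSO cells (SD, n = 2 each), a ratio of 1.137. It was 69439 ± 478 CPM in WT MI-503 and 60663 ± 1416 CPM in WT DMSO cells, a ratio of 1.145. As a share of counts, dKO DMSO stood 1.13 times above WT DMSO, whereas on the TMM scale the ratio was 0.965. By gene, dKO DMSO had the lowest group mean for 35 of 77 members, WT DMSO for 34, and dKO MI-503 and WT MI-503 for 4 each. The highest mean was in WT MI-503 for 31, dKO MI-503 for 27, WT DMSO for 19 and dKO DMSO for 0. Large-subunit genes were 1.148 and 1.276 times higher in share with MI-503 in dKO and in WT cells, and small-subunit genes 1.149 and 1.315 times.

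**Figure D2:**
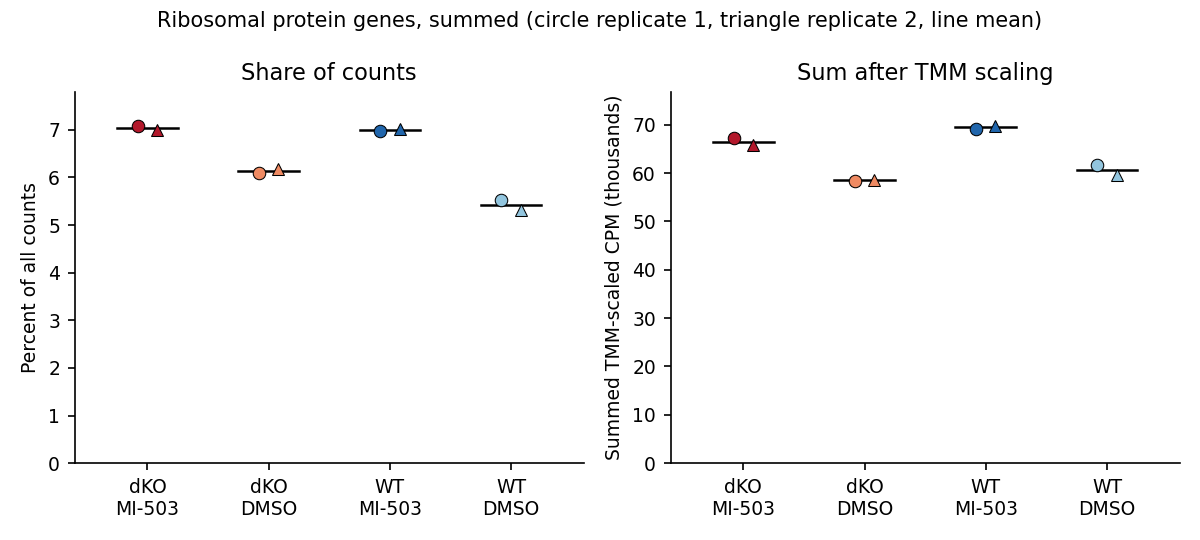
Summed ribosomal protein messages in each library, as percent of all counts (left) and as TMM-scaled CPM (right), for dKO MI-503, dKO DMSO, WT MI-503 and WT DMSO; points are libraries and lines are means. Both MI-503 groups lie above their DMSO groups in both panels, while dKO DMSO lies above WT DMSO as a share (6.13% against 5.42%) and below it after TMM scaling.

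Called below are genes with a Benjamini-Hochberg adjusted p under 0.05 over all 16921 genes in edgeR's quasi-likelihood test, and changes are log2 fold changes with their standard errors. In dKO cells MI-503 moved the members in 1 direction: 47 of 80 rose, 0 fell and 33 were not called. Of all genes tested, 29.1% rose and 26.5% fell. The median change of the members was 0.18, against 0.031 over all genes. At an unadjusted p under 0.05, 50 members were higher and 0 lower, and DESeq2 called 47 higher and 0 lower. Among large-subunit genes 26 of 49 rose, and among small-subunit genes 21 of 31.

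The largest rises in dKO cells belonged to large-subunit genes. Rpl41, which encodes the shortest ribosomal protein, had 1143 and 1024 CPM in the dKO MI-503 libraries, against 641 and 694 in the dKO DMSO libraries, a change of 0.70 ± 0.072 (adjusted p = 1.76e-06). Rpl27a had 543 and 435 CPM in the dKO MI-503 libraries, against 302 and 357 in the dKO DMSO libraries, and changed by 0.57 ± 0.089 (adjusted p = 9.2e-05). In both genes every MI-503 library lay above every DMSO library, though the dKO MI-503 replicates of Rpl27a were far apart. Rpl11, whose protein joins Rpl5 and an rRNA in a particle that can bind the p53 inhibitor Mdm2, had 629 and 642 CPM in the dKO MI-503 libraries, against 447 and 439 in the dKO DMSO libraries. Its change was 0.52 ± 0.043 (adjusted p = 2.23e-07), with replicates that nearly coincide. Rpl37a had 512 and 514 CPM in the dKO MI-503 libraries, against 360.2 and 362 in the dKO DMSO libraries, and changed by 0.51 ± 0.045 (adjusted p = 4.23e-07).

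The lowest values among members of at least 5 CPM in dKO cells were close to 0 and not called. They were -0.048 for Rpl32l, -0.038 for Rpl12, -0.032 for Rpl5 and -0.029 for Rpl4. Rpl4, a large-subunit protein that lines the exit tunnel, had 2605 and 2719 CPM in the dKO MI-503 libraries, 2805 and 2627 in the dKO DMSO libraries, 2648 and 2685 in the WT MI-503 libraries, and 2766 and 2733 in the WT DMSO libraries, and its dKO groups overlap. Over the 77 members the changes in dKO cells spanned -0.048 to 0.70 with an SD of 0.15, and 1 member passed 1.5-fold.

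In WT cells the members moved further and less evenly with MI-503. Of 80, 42 rose, 11 fell and 27 were not called, where 35.2% of all genes tested rose and 33.7% fell. The median was 0.19 for members and 0.031 for all genes. Changes spanned -0.48 to 1.34 over the 77 members, with an SD of 0.37, and 14 members passed 1.5-fold upward and 0 downward. Large-subunit genes held 24 rises and 7 falls, and small-subunit genes 18 rises and 4 falls. With scaling to library size alone 60 members rose and 1 fell. That scaling raised the median of all genes by 0.17, and the member median above that of all genes was 0.16 under either scaling.

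The 4 members that rose most in WT cells were large-subunit genes that passed 2-fold. Rpl8, which lies near the peptidyl transferase centre, had 1078 and 1016 CPM in the WT MI-503 libraries, against 449 and 376 in the WT DMSO libraries, and changed by 1.34 ± 0.089 (adjusted p = 8.51e-09). Rpl41 had 969.7 and 934 CPM in the WT MI-503 libraries, against 430.5 and 370.4 in the WT DMSO libraries, and changed by 1.25 ± 0.073. Rpl13a, whose protein can in human cells also leave the ribosome to silence inflammatory messages, had 85.5 and 90.7 CPM in the WT MI-503 libraries, against 36.1 and 41.6 in the WT DMSO libraries, and changed by 1.18 ± 0.079. For each of the 3, both MI-503 libraries lay above both DMSO libraries, with gaps wider than those between replicates. Rpl7a, which carries the longest pyrimidine run among the windows printed, had 1606 and 1621 CPM in the WT MI-503 libraries, against 787 and 728 in the WT DMSO libraries, a change of 1.09 ± 0.049 (adjusted p = 1.71e-10). Rps24, a small-subunit gene mutated in Diamond-Blackfan anaemia in humans, had 1251 and 1330.1 CPM in the WT MI-503 libraries, against 621 and 670.1 in the WT DMSO libraries, and rose by 1.00 ± 0.067 on the log2 scale.

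Against this, 11 members fell in WT cells with MI-503. Rpl5, the other protein of the particle that holds Rpl11, had 1590.0 and 1657 CPM in the WT MI-503 libraries, against 2177 and 2362 in the WT DMSO libraries, a change of -0.48 ± 0.063 (adjusted p = 9.93e-06). Rpl11 moved the other way, with 662 and 669 CPM in the WT MI-503 libraries, against 485 and 470.1 in the WT DMSO libraries, and a change of 0.48 ± 0.043 (adjusted p = 2.23e-07). The partners of 1 particle were thus called in opposite directions in the same libraries. Rpl17 had 1262 and 1352 CPM in the WT MI-503 libraries, against 1556 and 1629 in the WT DMSO libraries, and changed by -0.29 ± 0.058. Rpl23, which also binds Mdm2, had 1263 and 1322 CPM in the WT MI-503 libraries, against 1492 and 1590.1 in the WT DMSO libraries, and changed by -0.25 ± 0.056. Rpl35a had 557 and 587 CPM in the WT MI-503 libraries, against 669.6 and 693 in the WT DMSO libraries, and changed by -0.25 ± 0.055. Groups did not overlap for these genes, but the calls of Rpl17, Rpl23 and Rpl35a rest on TMM-type scaling: by library size alone their changes were -0.11, -0.079 and -0.078 and not called. Rpl5 was still called lower by library size alone (-0.31, adjusted p = 0.0005).

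Of the stalk proteins that recruit elongation factors, Rplp0 and Rplp1 rose in WT cells. Rplp0 had 2335 and 2205 CPM in the WT MI-503 libraries, against 1999 and 1702 in the WT DMSO libraries, and changed by 0.29 ± 0.076 (adjusted p = 0.00333), a call lost without WT DMSO replicate 2, at an adjusted p of 0.0544. Rplp1 had 517 and 438 CPM in the WT MI-503 libraries, against 353 and 263 in the WT DMSO libraries, and changed by 0.63 ± 0.19 (adjusted p = 0.00816), a call lost with DESeq2 (adjusted p = 0.0614), without WT MI-503 replicate 1 (0.056) and without WT DMSO replicate 2 (0.101). Rplp2, given to complete the stalk, had 347 and 307 CPM in the WT MI-503 libraries, against 315 and 253 in the WT DMSO libraries, and was not called (0.21 ± 0.15), although library size alone, no filter and a fit of only the WT groups called it. In dKO cells none of the 3 was called, with changes of 0.18 for Rplp0, 0.30 for Rplp1 and 0.15 for Rplp2. Whether they were called depended on single libraries and on the settings. Rplp0 was called with DESeq2 (adjusted p = 0.041), by library size alone, with no filter, and without either WT DMSO library or either second dKO library. Rplp1 was called without dKO MI-503 replicate 2 (0.55, adjusted p = 0.0118) or dKO DMSO replicate 2 (0.60, adjusted p = 0.016), and Rplp2 likewise (0.36, adjusted p = 0.0367, and 0.38, adjusted p = 0.0485). Both were called with no filter, and both were below 0 without dKO MI-503 replicate 1.

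**Figure D3:**
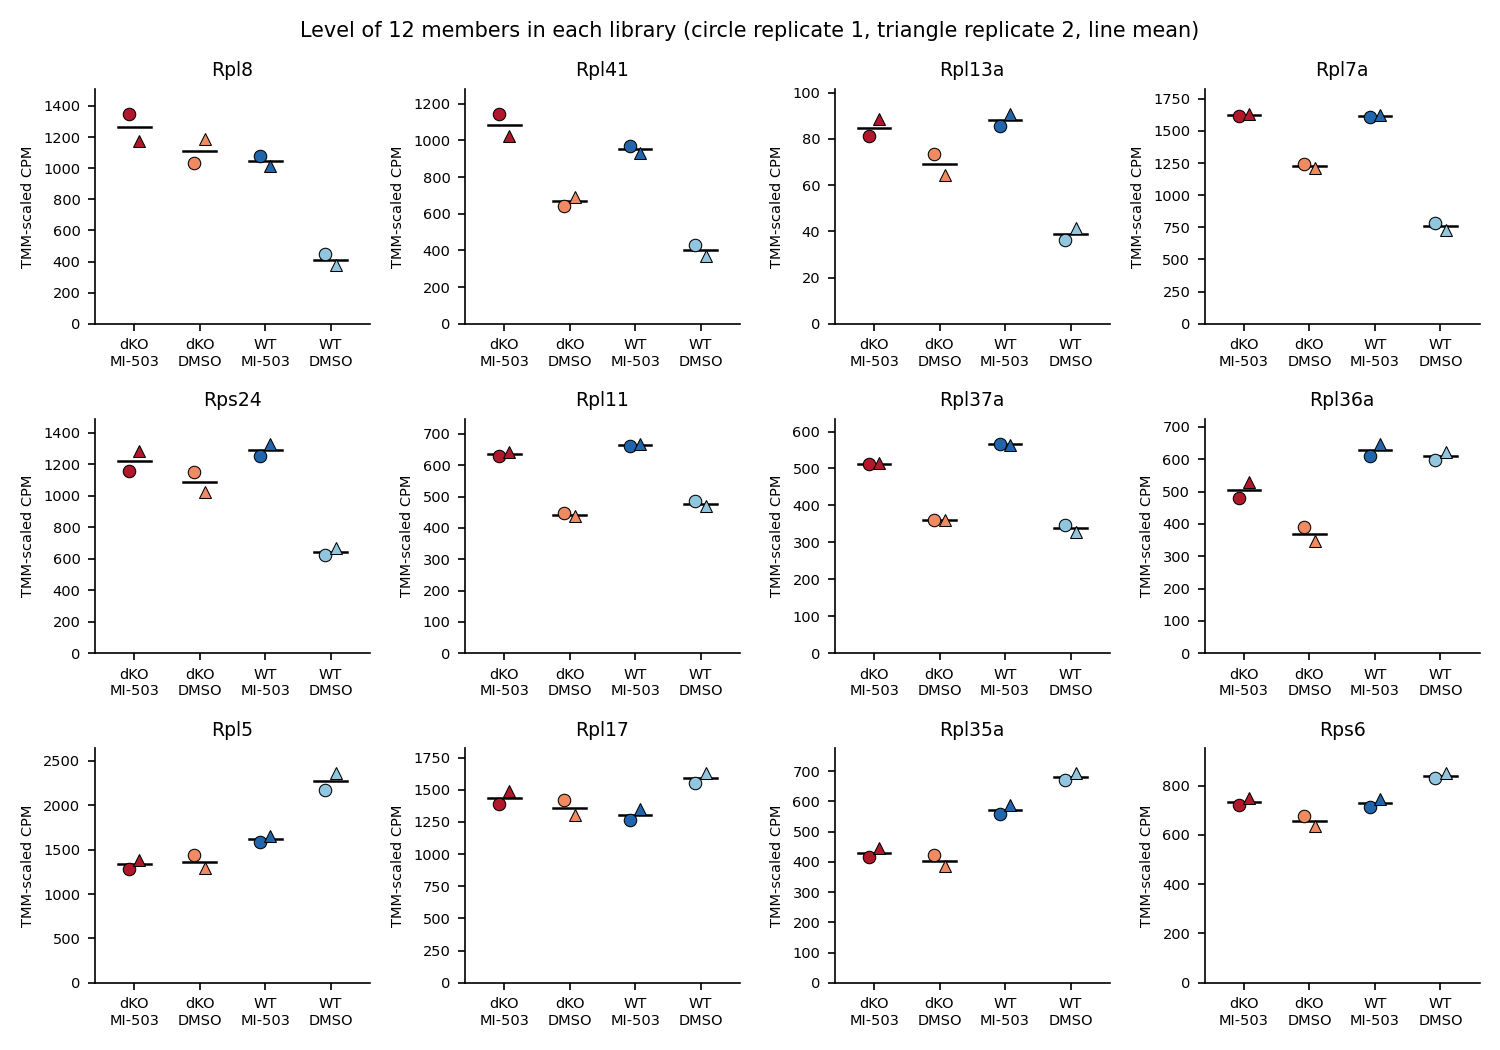
TMM-scaled CPM of 12 ribosomal protein genes in every library, for dKO MI-503, dKO DMSO, WT MI-503 and WT DMSO, with the mean of each group as a line and axes that start at 0. Rpl8, Rpl41, Rpl13a, Rpl7a and Rps24 are lowest in WT DMSO, Rpl5, Rpl17, Rpl35a and Rps6 are highest there, and Rpl11 and Rpl37a follow the treatment in both genotypes.

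The MI-503 comparisons in the 2 genotypes share no library. Their calls are still not independent, since 1 fit of all 8 libraries gave the scaling and the estimate of the spread for both. Rises in both were found for 30 members, among them Rpl41, Rpl7a, Rpl13a, Rps24, Rpl11, Rpl37a, Rpl27a and Rps4x. These are 37.5% of the members tested, where 21.1% of all genes tested rose in both. The call of Rps24 in dKO cells (0.17, adjusted p = 0.0457) was lost without dKO MI-503 replicate 2 (adjusted p = 0.343), dKO DMSO replicate 2 (0.324) or either WT MI-503 library, and with RLE size factors (0.0502). That of Rps4x (0.24) was lost without dKO DMSO replicate 2 (adjusted p = 0.0513). A further 15 members were called higher in dKO cells but not called in WT cells (18.8%, against 5.09% of all genes), and 12 were called higher in WT cells but not called in dKO cells (15%, against 12%). Falls in WT with no call in dKO cells were found for 9 members, among them Rpl5, Rpl12, Rpl17, Rpl23 and Rpl35a, or 11.2%, against 10.5% of all genes. Across the 77 members the changes in dKO and in WT cells had a Pearson r of 0.58 and a Spearman rho of 0.61, and 60 had the same sign; genes of 1 library share its depth and are not independent.

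Rps6 and Rps23 were called higher in dKO and lower in WT cells. They are 2.5% of the members tested, where 2.88% of all genes had this pattern, so the share is not above that of all genes. Rps6, the small-subunit protein phosphorylated by the S6 kinases, had 719.8 and 749 CPM in the dKO MI-503 libraries, 677 and 637 in the dKO DMSO libraries, 713 and 746 in the WT MI-503 libraries, and 830.2 and 851 in the WT DMSO libraries. It changed by 0.16 ± 0.049 in dKO cells (adjusted p = 0.0124) and by -0.20 ± 0.049 in WT cells (adjusted p = 0.00197), and both MI-503 groups stood close together. The dKO call was lost without either second dKO replicate, and the WT call by library size alone (-0.030). Rps23, a protein of the decoding centre, changed by 0.12 ± 0.046 in dKO and -0.12 ± 0.046 in WT cells. Both of its calls were marginal (adjusted p = 0.0347 in dKO and 0.0377 in WT cells); by library size alone the WT change was 0.058, and DESeq2 did not call it. The dKO call was lost without any 1 of both dKO MI-503 libraries, dKO DMSO replicate 2 and both WT MI-503 libraries, and the WT call without either WT MI-503 library or WT DMSO replicate 1.

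Whether the MI-503 effect itself differed between genotypes was tested as an interaction, the effect in dKO minus the effect in WT cells. It was lower in dKO cells for 15 members and higher for 18, with 47 not called, where 22% of all genes were lower and 24.8% higher. The median was -0.0066, against 0.018 over all genes. By library size alone the split was 26 lower and 4 higher, with the median of all genes at -0.14, so the number of members on each side depends on the scaling. Without WT MI-503 replicate 1, 11 were lower and 10 higher. The member median stood 0.024 below that of all genes under TMM and 0.025 below by library size.

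The most negative differences were those of Rpl8, Rpl13a, Rps24 and Rpl7a, genes with large rises in WT cells, which enter the difference. For Rpl8 the change was 0.19 ± 0.087 in dKO cells, not called, against 1.34 ± 0.089 in WT cells, a difference of -1.16 ± 0.12 (adjusted p = 4.76e-06). In dKO cells Rpl8 was called higher without dKO MI-503 replicate 2 (0.28, adjusted p = 0.0203), dKO DMSO replicate 2 (0.29, adjusted p = 0.0202) or either WT DMSO library (adjusted p = 0.0481 and 0.049), and with no filter. The differences were -0.88 ± 0.11 for Rpl13a, -0.83 ± 0.094 for Rps24 and -0.69 ± 0.069 for Rpl7a (adjusted p = 2.56e-06). In these genes dKO DMSO lay nearer to the MI-503 groups than WT DMSO did. Rpl8 averaged 1262 ± 120.4 CPM in dKO MI-503, 1110.0 ± 112 in dKO DMSO, 1047 ± 43.7 in WT MI-503 and 412 ± 51.8 in WT DMSO (SD, n = 2 each). On the other side were Rpl5 with 0.45 ± 0.089, Rpl36a with 0.41 ± 0.088, Rps6 with 0.37 ± 0.069 and Rpl17 with 0.36 ± 0.082. Rpl5 also had its 2 dKO groups close together, at 1334 ± 78 CPM in dKO MI-503 and 1363 ± 101 in dKO DMSO, against 1623 ± 47 in WT MI-503 and 2269.6 ± 131 in WT DMSO. Rpl36a differed in another way, since it rose with MI-503 in dKO cells (0.46) and was not called in WT cells (0.046), though it was there by library size alone (0.22, adjusted p = 0.00558) and with no filter (0.12, adjusted p = 0.0251).

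**Figure D4:**
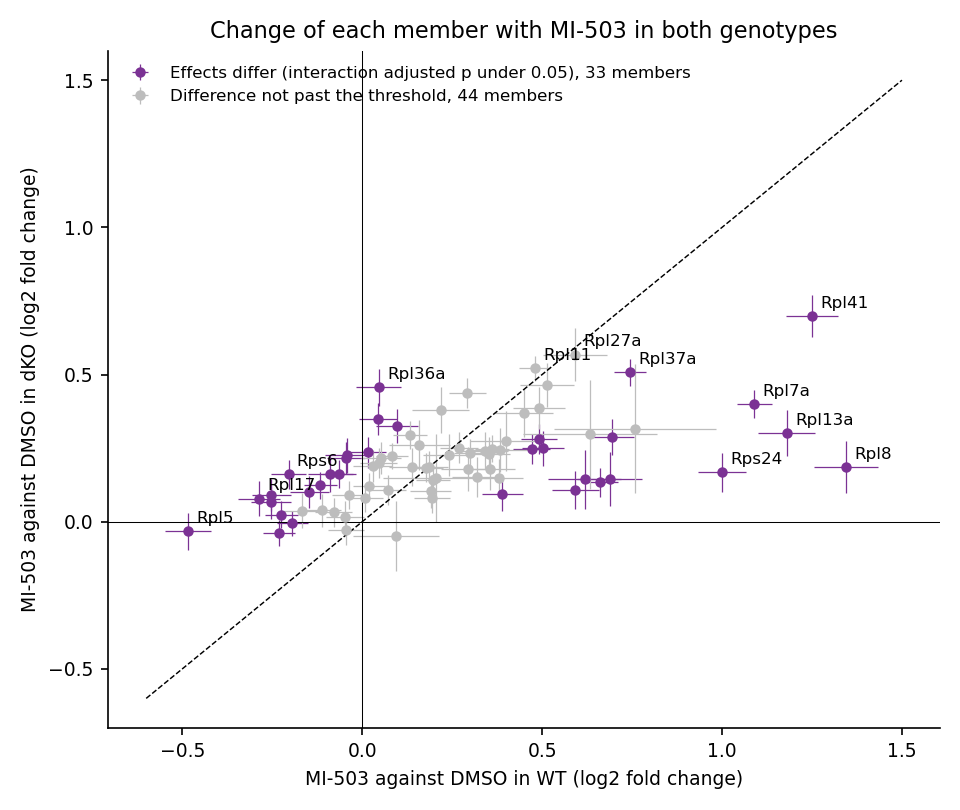
Log2 fold change with MI-503 in WT cells (x axis) and in dKO cells (y axis) for 77 ribosomal protein genes, with standard errors; the dashed line marks equal changes and purple marks the 33 members whose changes differ by the interaction test. Rpl8, Rpl13a, Rps24 and Rpl7a lie far right of the line, Rpl5, Rpl17 and Rps6 left of 0, and values spread more along x (SD 0.37) than along y (SD 0.15).

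In DMSO, dKO cells differed from WT cells in both directions. Of 80 members 26 rose, 34 fell and 20 were not called, where 29.6% of all genes rose and 35.8% fell, so the shares of calls are near those of all genes. The median was -0.078 for the 80 members, -0.060 for the 77 of at least 5 CPM and -0.052 for all genes. By library size alone 43 members rose and 17 fell and the member median was 0.15, with the median of all genes moved by 0.23; relative to all genes the member median was -0.026 and -0.025 under the 2 scalings. The changes were widely spread, with an SD of 0.45 over 77 members. For large-subunit genes 15 rose and 22 fell, and for small-subunit genes 11 rose and 12 fell.

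Rpl8 again stood first, with 1031 and 1189 CPM in the dKO DMSO libraries, against 449 and 376 in the WT DMSO libraries, a change of 1.43 ± 0.089 (adjusted p = 6.86e-09). Rpl36 had 135 and 221 CPM in the dKO DMSO libraries, against 98.3 and 69.2 in the WT DMSO libraries, and changed by 1.09 ± 0.22 (adjusted p = 0.000718). Rplp1 had 472 and 695 CPM in the dKO DMSO libraries, against 353 and 263 in the WT DMSO libraries, and changed by 0.92 ± 0.19 (adjusted p = 0.000641). The groups did not overlap for these genes, but Rpl36 and Rplp1 differed widely within each group, at the end of the replicate axis described above. Across the 77 members the change in DMSO correlated with the replicate difference of dKO MI-503 (r = -0.57) and of WT MI-503 (r = -0.54), libraries outside the comparison. Rpl13a had 73.4 and 64.4 CPM in the dKO DMSO libraries, against 36.1 and 41.6 in the WT DMSO libraries, and changed by 0.83 ± 0.079, with Rpl41 at 0.74 ± 0.072 and Rpl7a at 0.70 ± 0.049.

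Among members of at least 5 CPM, the largest falls in dKO cells were those of large-subunit genes. Rpl35a, which is mutated in some human patients with Diamond-Blackfan anaemia, had 422 and 386 CPM in the dKO DMSO libraries, against 669.6 and 693 in the WT DMSO libraries, a change of -0.76 ± 0.055 (adjusted p = 3.63e-08). Rpl5 had 1435 and 1292 CPM in the dKO DMSO libraries, against 2177 and 2362 in the WT DMSO libraries, and changed by -0.74 ± 0.063. Rpl36a had 389 and 349 CPM in the dKO DMSO libraries, against 597 and 621 in the WT DMSO libraries, and changed by -0.72 ± 0.063. Rpl39, which lines the exit tunnel, had 389 and 361 CPM in the dKO DMSO libraries, against 591 and 641 in the WT DMSO libraries, and changed by -0.72 ± 0.059 (adjusted p = 1.07e-07). Every dKO library lay below every WT library for each of the 4 genes.

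With MI-503 in both genotypes, dKO and WT cells were closer. Of 80 members 16 rose, 23 fell and 41 were not called, where 26.6% of all genes rose and 28.5% fell. The SD over 77 members was 0.25, and the median was -0.068 against 0.0071 over all genes. By library size alone the split was 23 higher and 17 lower. Without WT MI-503 replicate 2, 6 members rose and 18 fell, and without dKO MI-503 replicate 1, 7 rose and 21 fell. Without WT MI-503 replicate 1, 9 rose.

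Rpl36 had 270.2 and 173 CPM in the dKO MI-503 libraries, against 155 and 128 in the WT MI-503 libraries, and changed by 0.65 ± 0.22 (adjusted p = 0.0233), and Rplp1 had 854 and 579.7 CPM in the dKO MI-503 libraries, against 517 and 438 in the WT MI-503 libraries, and changed by 0.59 ± 0.19 (adjusted p = 0.0163). Both calls were lost with DESeq2 (adjusted p = 0.151 for Rpl36 and 0.116 for Rplp1) and without dKO MI-503 replicate 1 or WT MI-503 replicate 2. Across the 77 members the change between genotypes in MI-503 correlated with the replicate difference of dKO DMSO (r = 0.68) and of WT DMSO (r = -0.62), libraries whose means do not enter it. Rpl13 had 724 and 632 CPM in the dKO MI-503 libraries, against 507 and 497 in the WT MI-503 libraries, and changed by 0.43 ± 0.066 (adjusted p = 7.95e-05). For this large-subunit gene the replicates lay closer together than the groups.

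Among members of at least 5 CPM, the largest fall in MI-503 was that of a small-subunit gene, Rps15a, with 471 and 501 CPM in the dKO MI-503 libraries, against 702 and 760.1 in the WT MI-503 libraries, and a change of -0.59 ± 0.057 (adjusted p = 9.84e-07). Rps4x had 1859 and 1977 CPM in the dKO MI-503 libraries, against 2589.7 and 2828 in the WT MI-503 libraries, and changed by -0.50 ± 0.063. Rpl39 had 458 and 482 CPM in the dKO MI-503 libraries, against 634 and 685 in the WT MI-503 libraries, and changed by -0.49 ± 0.058. For the 3 genes the dKO libraries were all below the WT libraries. Calls in both treatments were lower for 21 members (26.2%, against 19.3% of all genes) and higher for 12 (15%, against 16.3%), and Rpl6 alone was called higher in DMSO and lower in MI-503. The DMSO and MI-503 comparisons of genotype share no library, but they share the scaling and the estimate of the spread.

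**Figure D5:**
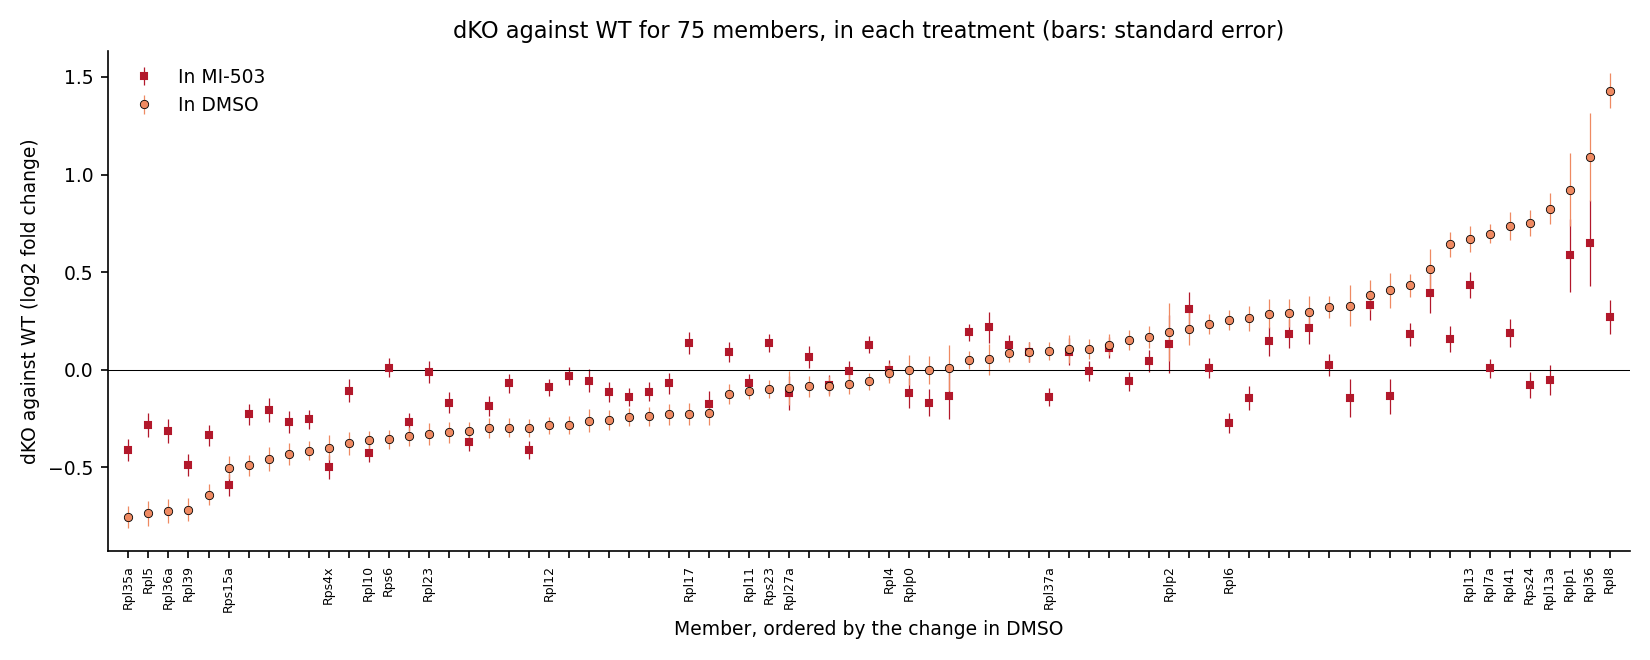
Log2 fold change of dKO against WT cells for 75 ribosomal protein genes, with names for those described in the text, ordered by the change in DMSO (circles), with the change in MI-503 (squares) and standard errors. Values in DMSO span -0.76 to 1.43 and those in MI-503 -0.59 to 0.65, and the largest rises in DMSO, from Rpl8 to Rps24, are nearer 0 in MI-503.

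Position set 4 members apart, a grouping made after their values were seen. Rpl10, Rpl36a, Rpl39 and Rps4x lie on the X chromosome and fell in dKO against WT cells in both treatments, 4 of 4 each time. Rpl10, a late-joining large-subunit protein, had 1283 and 1271 CPM in the dKO MI-503 libraries, 1105 and 1067 in the dKO DMSO libraries, 1685 and 1750.2 in the WT MI-503 libraries, and 1408 and 1383 in the WT DMSO libraries. Its change was -0.43 ± 0.046 in MI-503 and -0.36 ± 0.046 in DMSO (adjusted p = 8.73e-06). Rps4x had 1717 and 1527 CPM in the dKO DMSO libraries, against 2108 and 2169 in the WT DMSO libraries, a change of -0.40 ± 0.063. Of the 76 autosomal members, 39.5% fell in DMSO and 25% in MI-503. Of all 600 X-linked genes tested, 47% fell in DMSO with a median of -0.28, against 36.8% and -0.044 for 14907 autosomal genes. In MI-503 the shares were 42.8% of X-linked and 29.4% of autosomal genes; the difference in shares was not tested. The number of X chromosomes in these cells was not analysed here. All 4 members rose with MI-503 in dKO cells, by 0.46 for Rpl36a, 0.33 for Rpl39, 0.24 for Rps4x and 0.23 for Rpl10. Of the 76 autosomal members 56.6% rose in that comparison, so the rise was not particular to the X-linked members. Among all genes tested, 27% of X-linked and 30.5% of autosomal genes rose.

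To set each member against its own family, libraries were also scaled to the summed counts of the 83 genes. With MI-503 in dKO cells 12 members then stood above the family and 9 below, where 20.4% of all genes were higher and 37.5% lower; 3 stood below without dKO MI-503 replicate 1 and 4 without dKO DMSO replicate 1. In WT cells 28 stood above and 29 below, where 28.2% and 41% of all genes were called. Rpl41 was above the family in both, by 0.51 ± 0.066 in dKO cells (adjusted p = 4.22e-06) and 1.06 ± 0.067 in WT cells. Rpl11 and Rpl37a were above it in dKO cells by 0.34 ± 0.05 and 0.32 ± 0.049. Rpl7a was above it in WT cells by 0.90 ± 0.052 and in dKO cells by 0.22 ± 0.052, and Rpl8 in WT cells by 1.15 ± 0.08. For dKO against WT cells in DMSO, 31 stood above and 32 below, where 31.9% of all genes were higher and 33% lower. The most significant were Rpl8 (1.48 ± 0.081), Rpl7a (0.75 ± 0.052) and Rpl41 (0.79 ± 0.066).

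Of 58 tested members with a promoter entry, 14 had the run at the first base, and 8 of these rose with MI-503 in dKO cells, with a median change of 0.15. Of the 44 without it, 31 rose, with a median of 0.22. In WT cells 7 of the 14 rose and 2 fell (median 0.16), and 24 of the 44 rose and 6 fell (median 0.28). For CCGGAAG, 18 of 23 members with it and 21 of 35 without it rose in dKO cells, and 13 of 23 and 18 of 35 in WT cells. For a run that begins within 10 bases of the start, 23 of 35 members with it and 16 of 23 without it rose in dKO cells (medians 0.18 and 0.23). In WT cells 18 of the 35 and 13 of the 23 rose (medians 0.18 and 0.27). Of all genes tested, 29.1% rose in dKO cells, and 35.2% rose and 33.7% fell in WT cells. No test was made on these counts.

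Several rows are close copies or have low counts, and are uncertain. Rps4l, a copy of Rps4x, had 0 counts in all 4 dKO libraries and 8 and 11 in WT MI-503 and 12 and 8 in WT DMSO. WT cells were at least 6.38-fold higher in MI-503 and at least 7.51-fold higher in DMSO, against a floor of 3 counts over the 2 dKO libraries. Rpl24, which has no copy among the members, had only 29 to 52 counts a library. Rpl36al, a copy of Rpl36a, had 19 to 46. Rpl6l and Rpl32l, named as like Rpl6 and Rpl32, had means of 5.93 and 8.45 CPM over the 8 libraries. Rpl6 and Rpl32 had 1127 and 1305 CPM, so reads of these could weigh on the rows of the copies. Of the other pairs, Rpl3 rose in WT with MI-503 (0.19 ± 0.05, not called without WT MI-503 replicate 2) beside Rpl3l at 0. How reads shared with the many processed pseudogenes of these genes were counted is not given in the labels or headers; rows named as pseudogenes took 0.0578% to 0.0915% of counts, and adding them changed the number of members called by at most 1 in each direction.

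The remaining protein genes of the ribosome that the symbol rule leaves out were mixed. Rps3a1 rose in WT cells with MI-503 (0.42 ± 0.054) and was higher in dKO than in WT cells in DMSO (0.34 ± 0.054). Fau, whose product carries a small-subunit protein, was higher in dKO cells in DMSO (0.32 ± 0.095) and in MI-503 (0.30 ± 0.095), but the DMSO call was lost without dKO DMSO replicate 2 or WT DMSO replicate 2, and the MI-503 call without dKO MI-503 replicate 1 or WT MI-503 replicate 2. Rps27rt had 2.90 to 4.80 CPM. Of the paralogs with roles outside the standard ribosome, Rpl7l1 fell with MI-503 in dKO (-0.52 ± 0.048) and WT cells (-0.89 ± 0.048). Rpl22l1 rose in WT (0.50 ± 0.067) and in dKO cells (0.18 ± 0.067); the dKO call was lost without dKO MI-503 replicate 2, dKO DMSO replicate 2 or WT MI-503 replicate 2. Rps27l, a p53 target, rose in dKO (0.20 ± 0.052) and fell in WT cells (-0.18 ± 0.052); the dKO call was lost without either second dKO library, and the WT call by library size alone (-0.0033) or without WT MI-503 replicate 1.

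Other genes of protein synthesis did not move as 1 block with the ribosomal proteins. Of 18 further translation genes known for TOP messages, 9 rose and 2 fell with MI-503 in dKO cells (median 0.16), and 11 rose and 4 fell in WT cells (median 0.27). Of all genes, 29.1% rose and 26.5% fell in dKO cells, and 35.2% rose and 33.7% fell in WT cells. Eif4b, an activator of the helicase that unwinds leaders, had 1338 and 1373 CPM in the dKO MI-503 libraries, 762 and 723 in the dKO DMSO libraries, 1402 and 1429.9 in the WT MI-503 libraries, and 567 and 574 in the WT DMSO libraries, with changes of 0.87 ± 0.046 in dKO and 1.31 ± 0.047 in WT cells. Hnrnpa1, an RNA-binding protein, changed by 0.81 ± 0.055 in dKO and 1.36 ± 0.056 in WT cells. Eef1a1, which delivers aminoacyl-tRNA, had 11067 and 11776 CPM in the dKO MI-503 libraries, 11410.4 and 10328 in the dKO DMSO libraries, 12002 and 12639 in the WT MI-503 libraries, and 4597 and 4543 in the WT DMSO libraries; it rose in WT cells (1.43 ± 0.061) and stood low in WT DMSO alone, as did Rpl8. In dKO against WT cells in DMSO, 6 of the 18 rose and 8 fell (33.3% and 44.4%, against 29.6% and 35.8% of all genes).

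Other initiation, elongation and release factors, whose starts were not examined, fell more often than they rose. Of 33, 19 fell and 5 rose with MI-503 in dKO cells (median -0.18), and 26 fell and 2 rose in WT cells (median -0.55). Among all genes 26.5% fell and 29.1% rose in dKO cells, and 33.7% fell and 35.2% rose in WT cells. Eif1, which guards start codon choice, had 296 and 286 CPM in the dKO MI-503 libraries, 743 and 718 in the dKO DMSO libraries, 274 and 290.1 in the WT MI-503 libraries, and 1077 and 1109 in the WT DMSO libraries, with changes of -1.33 ± 0.048 in dKO and -1.95 ± 0.049 in WT cells. Eif3j1 changed by -1.47 ± 0.06 in dKO and -2.61 ± 0.062 in WT cells, and Eif5 by -1.45 in WT cells. In dKO against WT cells in DMSO 26 of the 33 fell and 2 rose, where 35.8% of all genes fell and 29.6% rose. Among the falls was Gspt1, a release factor (-0.90 ± 0.05).

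Helpers of ribosome making were lower too. For the lists below, the shares of all genes were 26.5% lower and 29.1% higher with MI-503 in dKO cells, and 33.7% and 35.2% in WT cells. Of 10 listed escorts and assembly factors of ribosomal proteins, 9 fell and 0 rose with MI-503 in dKO cells, and 7 fell and 1 rose in WT cells. Tsr2, the escort of Rps26, had 15.2 and 15.4 CPM in the dKO MI-503 libraries, 40.4 and 38.5 in the dKO DMSO libraries, 15.8 and 16.4 in the WT MI-503 libraries, and 56.8 and 54.7 in the WT DMSO libraries, with changes of -1.37 ± 0.062 in dKO and -1.80 ± 0.062 in WT cells. Heatr3, which in human cells brings Rpl5 into the nucleus, changed by -0.86 in dKO cells. Of 11 matched genes of RNA polymerase I, which makes rRNA, 7 fell and 2 rose in dKO cells, and 7 fell and 1 rose in WT cells. Its factor Ubtf changed by -0.65 ± 0.048 in dKO and -1.05 ± 0.049 in WT cells, while the subunit gene Polr1d rose by 0.79 in dKO and 1.57 in WT cells.

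Genes of mTORC1 signalling and TOP message control were mixed. Of 27, 8 fell and 6 rose with MI-503 in dKO cells (29.6% and 22.2%, where 26.5% of all genes fell and 29.1% rose), and 11 fell and 8 rose in WT cells (40.7% and 29.6%, where 33.7% fell and 35.2% rose). The median was 0.032 in dKO and 0.033 in WT cells. The same 3 genes were the most significant in both genotypes, and all fell. Larp1, which binds the TOP motif and the cap, had 356 and 345 CPM in the dKO MI-503 libraries, 538 and 542 in the dKO DMSO libraries, 321 and 312 in the WT MI-503 libraries, and 621 and 604 in the WT DMSO libraries, with changes of -0.62 ± 0.044 in dKO and -0.95 ± 0.044 in WT cells. Rps6kb1, the S6 kinase, had 79.2 and 80.1 CPM in the dKO MI-503 libraries, 141 and 133 in the dKO DMSO libraries, 62 and 63.3 in the WT MI-503 libraries, and 124 and 130.1 in the WT DMSO libraries, and changed by -0.78 ± 0.049 in dKO and -1.02 ± 0.05 in WT cells. Sesn2, a leucine-sensing inhibitor of mTORC1, changed by -1.58 ± 0.071 in dKO and -1.62 ± 0.069 in WT cells. All 3 were lower in every MI-503 library than in every DMSO library of the same genotype.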

How the data were processed

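PolyA RNA-seq counts of 8 libraries in 4 groups of 2 were used; 32 of the 40 samples of the series were not analysed here. The authors deposited unnormalized whole-number counts, 1 row per Ensembl identifier. The submitters' processing notes name GRCm38 and mm10 as builds, and SICER, deepTools, MACS3, Bowtie2 and STAR as tools. Neither the counter nor its strandedness nor the gene models are given in the sources used here; close copies and overlapping genes are therefore uncertain. One row without an identifier was left out, and 53274 of 53465 rows had a symbol.

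The fit used edgeR 4.0.16 in R 4.3.3: filterByExpr by group (minimum count 10, minimum total 15; 16921 genes kept), TMM scaling, and a quasi-likelihood test with 1 mean per group over 8 libraries, which leaves 4 residual degrees of freedom. Adjusted p is Benjamini-Hochberg over all genes tested, with a threshold of 0.05. The biological coefficient of variation was 5.14%. CPM values are TMM-scaled. The steps were tested on simulated data in which a small part of the genes changed, with rises and falls in equal number. The simulation held no replicate axis and no counterpart of the chaperone share in WT DMSO. It therefore cannot show how the scaling behaves under these conditions. A count of 0 allows up to 3 counts, or 0.0421 to 0.0501 CPM, for counting error only.

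The members, gene lists and tests were chosen with earlier results of these data known. Genes named per comparison were the 4 members of at least 5 CPM with the largest rise and the 4 with the largest fall, the 3 most significant relative to the family, the 3 of highest mean CPM, copies among the members, ribosomal proteins outside the symbol rule, and the 3 most significant of other lists. Some genes under this rule are not reported here. Promoters and positions were matched by symbol to RefSeq of GRCm38.p6. Alternatives tried were library size alone, RLE size factors, TMM without the members or without the chaperones, DESeq2 1.42.0, no filter or 1 CPM in every library, only the groups compared, a replicate block, pseudogene counts added, and leaving out libraries.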

Additional observations from a re-analysis of the deposited data

Results flagged for a closer look

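The effect of MI-503 differed between dKO and WT cells, by the interaction test of edgeR's quasi-likelihood fit, for 33 of 80 ribosomal protein genes, of which 8 are named in the text. These are 18 higher and 15 lower, where 24.8% of all genes tested were higher and 22% lower, so the share of members called is not above that of all genes. Values are log2 changes with MI-503 and their difference (dKO minus WT) with its standard error. Rpl8 had 0.19 in dKO and 1.34 in WT cells, a difference of -1.16 ± 0.12 (adjusted p = 4.76e-06). Rpl13a had 0.30 in dKO and 1.18 in WT cells, a difference of -0.88 ± 0.11. Rps24 had 0.17 in dKO and 1.00 in WT cells, a difference of -0.83 ± 0.094. Rpl7a had 0.40 in dKO and 1.09 in WT cells, a difference of -0.69 ± 0.069. Rpl5 had -0.032 in dKO and -0.48 in WT cells, a difference of 0.45 ± 0.089 (adjusted p = 0.000865). Rpl36a had 0.46 in dKO and 0.046 in WT cells, a difference of 0.41 ± 0.088. Rps6 had 0.16 in dKO and -0.20 in WT cells, a difference of 0.37 ± 0.069. Rpl17 had 0.079 in dKO and -0.29 in WT cells, a difference of 0.36 ± 0.082 (adjusted p = 0.00243). WT DMSO libraries, with a chaperone share of 3.70% and 3.97%, enter each difference; with TMM factors computed without the chaperones, 15 members were lower and 18 higher, as with all genes.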

How the results depend on the processing

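In dKO cells 0 members fell with MI-503 under every alternative run, and between 37 and 66 rose. By library size alone the member median was 0.3667 for MI-503 in WT cells, -0.1667 for the interaction, 0.1506 for dKO against WT in DMSO and 0.001164 in MI-503; members called were 1 lower for MI-503 in WT cells, 26 lower and 4 higher for the interaction, and 17 lower and 43 higher for dKO against WT in DMSO. The median of all genes moved with the scaling, by 0.174, -0.159, 0.227 and 0.069 in the same order. Without a filter the medians were 0.1591 for MI-503 in dKO, 0.2655 in WT, -0.1056 for the interaction (32 lower, 8 higher) and 0.01536 for dKO against WT in DMSO. With 1 CPM in every library the genotype medians were 0.01983 in DMSO and -0.01545 in MI-503; RLE size factors and DESeq2 gave -0.03823 in DMSO, and a fit of only the groups compared gave 0.003373 there and 0.1594 for MI-503 in dKO cells. The cause was not tested for these. The sign of the genotype median in DMSO thus depends on filter and scaling.

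Member shares were 7.128% in dKO MI-503, 6.208% in dKO DMSO and 7.083% in WT MI-503 with pseudogene counts added. Without mitochondrial transcripts in the total they were 7.221%, 6.316%, 7.183% and, in WT DMSO, 5.602%; without chaperones WT DMSO had 5.638%. With the median ratio of the members as the scale, 3 stood below the family for MI-503 in dKO cells.

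Leaving out each library in turn gave medians of 0.1447 to 0.2243 for MI-503 in dKO, 0.1606 to 0.2304 in WT, -0.0663 to 0.05892 for the interaction, -0.08721 to -0.05352 for dKO against WT in DMSO and -0.07693 to -0.04591 in MI-503. The interaction median turned above 0 without dKO MI-503 replicate 2 (0.02394), dKO DMSO replicate 2 (0.02958), WT MI-503 replicate 1 (0.008022) or 2 (0.0107), or WT DMSO replicate 2 (0.05892). Between 10 and 20 members were higher by interaction and 11 to 19 lower. For dKO against WT, 6 to 19 rose and 18 to 26 fell in MI-503, and 19 to 28 rose and 32 to 35 fell in DMSO. With MI-503, 37 to 49 rose in dKO cells, and 33 to 43 rose and 8 to 12 fell in WT cells. Relative to the family, 10 to 13 stood above and 3 to 9 below for MI-503 in dKO cells, 20 to 30 above and 21 to 30 below in WT cells, and 25 to 32 above and 28 to 32 below for dKO against WT in DMSO. Shares ran from 6.992% to 7.086%, 6.088% to 6.17%, 6.982% to 7.026% and 5.319% to 5.524% in dKO MI-503, dKO DMSO, WT MI-503 and WT DMSO. Without both WT DMSO libraries, 45 members rose and 0 fell with MI-503 in dKO cells.

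Single genes that turned sign were uncalled or marginal in the TMM fit of all 8 libraries. Over the fits with 1 library left out, the change with MI-503 in dKO cells ran from -0.1644 to 0.05253 for Rpl32l, from -0.07679 to 0.01502 for Rpl4, from -0.1067 to 0.04177 for Rpl5 (0.02298 without dKO MI-503 replicate 1), from -0.01291 to 0.6015 for Rplp1 and from -0.1056 to 0.3841 for Rplp2 (-0.05981 without dKO DMSO replicate 1). In WT cells it ran from -0.01017 to 0.09196 for Rpl36a. By library size alone Rps23 had 0.05821 in WT cells and was not called, while Rpl4 had 0.1306 and was called higher (edgeR adjusted p = 0.0251). Rpl4 had 0.004388 with 1 CPM in every library and 0.02914 without a filter, neither called.

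The labels do not tie replicate numbers to shared cultures. With the replicate block, 41 members rose and 0 fell with MI-503 in dKO cells, 42 rose and 10 fell in WT cells, 18 were higher and 15 lower by interaction, and 25 rose and 32 fell for dKO against WT in DMSO. Same-numbered libraries of dKO DMSO and the other groups ran against each other, so a crossed replicate block was added after seeing the data: 37 fell and 26 rose for dKO against WT in MI-503, 28 were lower and 31 higher by interaction, and 22 stood above and 22 below the family for MI-503 in dKO cells. With at least 58113705 counts a library, 2 libraries a group and the spread between them limit most members; Rps4l, Rpl24 and Rpl36al are limited by low counts.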
